A study of Mus musculus with 16 samples.

Results

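The 16 arrays of this series measured whole tumour RNA, and 12 of them were compared here as 2 classes set by how much digestive enzyme RNA of the exocrine pancreas they carried. The members were chosen by measured values: in the authors' deposited log2 table the signals of Cela1, Ctrl, Cpa1, Cpb1 and Pnlip were averaged per array, the 6 highest arrays were called acinar-rich and the 6 lowest acinar-poor. The 4 arrays between them are called intermediate. Because the classes were selected on acinar genes, every value of an acinar gene given here is a description and not a finding. The tests concern the other genes on the array.

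The mice were C57BL/6 females bearing orthotopic pancreatic tumours, that is, tumours grown in the pancreas itself. Of the 16 arrays 6 came from vehicle-treated animals, whose time label reads only control, 5 were taken at 48 h and 5 at 10 days of ADH-503, a small molecule agonist of CD11b; all treated titles name LA1, taken here as the same compound. The labels name no tumour cell line or genotype and do not say whether each array is a separate animal, so p-values reflect only how these samples scatter, which may in part be technical. The titles of vehicle replicate 2, an intermediate array, and 48 h replicate 5, an acinar-rich array, share an ID number. Replicate numbers below follow the order of the samples and carry no other meaning.

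Acinar cells make up most of the normal pancreas. They synthesize digestive proteases, lipases, amylase and nucleases, store them as inactive precursors in zymogen granules and release them on stimulation by hormones and nerves. Their genes are driven by a complex built around the transcription factor Ptf1a with its partner Rbpjl, and tissue left at the border of a growing tumour can still contain them. Damaged or inflamed acinar cells are known to switch on Reg genes, which encode small secreted lectins, and to take on traits of duct cells. In bulk RNA fewer acinar cells and less enzyme RNA per acinar cell cannot be told apart.

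The promoters of 4 genes are shown because the enzyme genes moved together and a paired motif near the start site is a known feature of acinar promoters. It joins an E-box, CANNTG, to GGGAAA or its complement TTTCCC, and the Ptf1a complex binds pairs of this kind. The sequences are the 250 bases before the gene start in RefSeq (build GRCm38.p6), 5′ to 3′ on the strand of the gene, and capitals mark E-boxes and GGGAAA or TTTCCC that lie at most 30 bases apart. Cel lies at chr2:28563404-28563653 (minus strand), Cela1 at chr15:100687921-100688170 (minus), Cpa1 at chr6:30638968-30639217 (plus) and Reg1 at chr6:78425733-78425982 (plus).
Cel: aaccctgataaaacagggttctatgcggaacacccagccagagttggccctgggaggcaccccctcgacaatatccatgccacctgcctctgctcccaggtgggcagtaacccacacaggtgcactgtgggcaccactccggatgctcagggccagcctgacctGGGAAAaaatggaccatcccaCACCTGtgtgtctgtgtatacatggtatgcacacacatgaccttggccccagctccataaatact
Cela1: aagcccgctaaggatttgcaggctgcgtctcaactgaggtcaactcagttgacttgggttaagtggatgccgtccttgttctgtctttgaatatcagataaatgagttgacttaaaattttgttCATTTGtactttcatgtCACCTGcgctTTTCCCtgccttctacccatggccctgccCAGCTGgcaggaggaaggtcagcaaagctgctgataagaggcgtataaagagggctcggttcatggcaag
Cpa1: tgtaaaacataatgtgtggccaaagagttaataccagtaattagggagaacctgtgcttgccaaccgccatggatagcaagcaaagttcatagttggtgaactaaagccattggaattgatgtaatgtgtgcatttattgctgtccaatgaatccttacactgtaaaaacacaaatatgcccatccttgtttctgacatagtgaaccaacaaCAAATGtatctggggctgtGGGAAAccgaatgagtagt
Reg1: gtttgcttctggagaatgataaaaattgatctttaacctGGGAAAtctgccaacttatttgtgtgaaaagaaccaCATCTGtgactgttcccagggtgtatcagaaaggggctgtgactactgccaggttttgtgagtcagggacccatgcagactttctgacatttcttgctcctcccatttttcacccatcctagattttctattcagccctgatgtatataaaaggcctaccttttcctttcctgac

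Both motifs were searched on either strand of 300 bases, 250 before to 50 after the start, and a pair counted only where its motifs did not overlap. Any order of the motifs and any gap up to 30 bases counted, so a match need not be a site of the Ptf1a complex. In Reg1 the gap was 30 bases, the limit itself. The pair was present in 8 of the 32 promoters found for the rule genes, enzymes and granule proteins (25%), which covered 30 of 38 genes. It was present in 3 of 7 promoters of the Reg lectins (42.9%), in 1 of 22 promoters of acinar regulators (4.55%) and in 2139 of 32851 promoters in the whole table (6.51%). Among the genes that set the classes, Cela1 and Cpa1 held it, while no such pair was in the window of Ctrl, Cpb1 or Pnlip. A match describes letters only.

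The acinar mean ran from 15.46 to 12.69 in the deposited log2 values, a 6.79-fold span between the highest and lowest array. The acinar-rich arrays were 10 day replicate 3 at 15.46, 48 h replicate 1 at 15.40, 48 h replicate 5 at 15.24, 48 h replicate 2 at 15.21, 48 h replicate 3 at 15.04 and vehicle replicate 4 at 15.03. The acinar-poor arrays were vehicle replicate 1 at 13.80, vehicle replicate 3 at 13.30, 10 day replicate 1 at 13.24, 10 day replicate 5 at 13.10, vehicle replicate 5 at 13.04 and 10 day replicate 4 at 12.69. The next arrays outside were 10 day replicate 2, at 14.96 and 0.078 under the last acinar-rich array, and vehicle replicate 6, at 13.85 and 0.052 above the first acinar-poor array. The widest gap in the order, 0.88, lay inside the intermediate arrays, with 9 arrays at 14.73 or more and 7 at 13.85 or less.

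**Figure D1:**
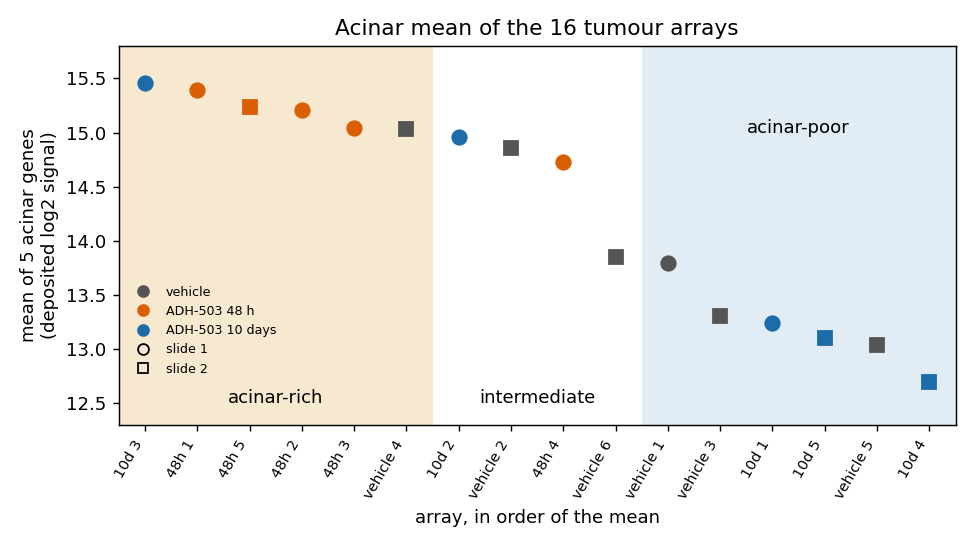
Mean deposited log2 signal of the 5 acinar genes (y axis) in each of the 16 arrays, ordered from high to low (x axis; 48h and 10d are ADH-503 at 48 h and 10 days). Colour gives the treatment group and shape the slide, and the shaded bands are the 6 acinar-rich and 6 acinar-poor arrays; no 48 h array lies in the acinar-poor band.

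The classes were uneven over the treatment groups. The 48 h group gave 4 acinar-rich and 1 intermediate array and no acinar-poor one, with a mean of 15.12 ± 0.25 (SD, n = 5). The vehicle group gave 1 acinar-rich and 3 acinar-poor arrays, with a mean of 13.98 ± 0.81 (SD, n = 6), and the 10 day group likewise 1 and 3, with 13.89 ± 1.23 (SD, n = 5). With treatment as a covariate, the direct contrast of rich and poor arrays therefore rests on 1 acinar-rich array against 3 acinar-poor ones in the vehicle group and again in the 10 day group; the 48 h group adds rich against intermediate arrays only. Slide 1 held 4 acinar-rich and 2 acinar-poor arrays, and slide 2 held 2 and 4. On slide 1 the acinar-rich arrays were 48 h replicates 1, 2 and 3 and 10 day replicate 3. Its acinar-poor arrays were vehicle replicate 1 and 10 day replicate 1, so differences within this slide mix class with treatment.

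In technical measures the classes overlapped. The processed signal had its 75th percentile at 5926 to 6736 in the acinar-rich and at 4953 to 6428 in the acinar-poor arrays. The share of probes well above background was 78.0% to 80.3% and 74.9% to 81.2%, and no spot was saturated. From here on, a level is the log2 processed signal minus that percentile of the array, and a difference is acinar-rich minus acinar-poor in limma with treatment in the model, as log2 ± SE. Differences given within a slide or a treatment group are instead plain differences of class means, without treatment in the model. Levels of different genes are not compared, since probes differ in brightness.

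The rule genes differed to unequal extents. Carboxypeptidase B1, Cpb1 (probe at chr3:20149467-20149526, mm9, the build of all probe positions here), measured 0.96, 1.37 and 1.76 (lowest, median, highest) in the acinar-rich and -1.95, -1.64 and -0.18 in the acinar-poor arrays, a difference of 2.67 ± 0.35. The triglyceride lipase Pnlip (chr19:58755296-58755355) measured 1.86, 2.18 and 2.38 against -1.32, -0.35 and 0.61, a difference of 2.48 ± 0.38. The chymotrypsin-like protease Ctrl (chr8:108456495-108456554) measured 2.44, 2.75 and 3.09 against 0.26, 0.49 and 0.85, a difference of 2.11 ± 0.30. None of the 5 overlapped between the classes, which the choice of arrays fixes.

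Carboxypeptidase A1, Cpa1 (chr6:30595240-30595299), measured 3.26, 3.51 and 3.74 against 1.26, 2.03 and 2.60, a difference of 1.43 ± 0.28. The elastase Cela1 (chr15:100504871-100504930) measured 3.03, 3.41 and 3.47 against 2.05, 2.29 and 2.64, a difference of 0.88 ± 0.20. A second Cela1 probe, well above background on all 16 arrays, gave 1.85, so the size depends on the probe. In Ctrl the arrays fell into a high and a low set around the gap, since 3 intermediate arrays measured 2.45 to 2.66 and vehicle replicate 6 measured 0.96. Cpb1 was graded instead, with the intermediate arrays at 0.81, 0.73, 0.29 and 0.05.

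The classes are further described by 33 enzyme and granule genes of 39 listed, which the rule did not average. The rest had no probe under their name or did not pass the filter on dim probes. Of these 32 were higher and 1 lower in the acinar-rich arrays, with a median difference of 1.57 beside -0.018 over all 30582 genes. In 24 of them every acinar-rich array lay above every acinar-poor one, beside 0.16% of all genes tested. The mean of the 33 ran from 0.88 to 1.39 in the acinar-rich and from -0.94 to 0.38 in the acinar-poor arrays. Of the 33, 28 were higher with an unadjusted limma p under 0.05, where 2.96% of all genes tested were higher and 2.6% lower. All arrays carried acinar RNA: 30 of these 33 genes were well above background on all 12 arrays of both classes. These counts follow from the choice of arrays and do not test the label.

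Lipase genes were higher in the acinar-rich arrays. Cel, which encodes bile salt-dependent lipase, measured 2.20, 2.56 and 2.85 in the acinar-rich and -0.54, -0.13 and 0.79 in the acinar-poor arrays. Its difference of 2.58 ± 0.30 was the single one of 30582 to pass the adjusted threshold of 0.05 (limma, adjusted p = 0.0255; 0.00327% of genes called). Leaving out 1 array left 0 genes called for 12 of the 16 arrays, and 20 without vehicle replicate 1; leaving out both arrays that share an ID number also left 0. The lipase-related gene Pnliprp2 had the largest difference of the enzymes, 3.07 ± 0.59, but was well above background on 2 of 6 acinar-poor arrays. Colipase, Clps, the cofactor of pancreatic lipase, had 1.30 ± 0.45.

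Amylase probes gave unequal differences, and probes of close copies may share signal. Amy2a5 measured 4.30, 4.44 and 4.58 against 3.34, 3.57 and 4.06, a difference of 0.73 ± 0.15, while a second Amy2a5 probe, well above background on all 16 arrays, gave 2.32. Amy1 differed by 1.08 ± 0.21. The Amy1 probe and the first Amy2a5 probe match in 39 of 46 aligned bases. The Amy2b probe gave 2.94 ± 0.52 with overlapping classes, since 1 acinar-poor array reached 1.69.

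Among the proteases, the elastases Cela3a, Cela3b and Cela2a differed by 2.20 ± 0.36, 1.92 ± 0.31 and 1.59 ± 0.30. The trypsinogens Prss2, Try4 and Prss3 differed by 1.75 ± 0.35, 1.42 ± 0.38 and 0.95 ± 0.28, with Try4 sharing 43 of 45 aligned probe bases with Try5 and Prss3 sharing 45 of 48 with Gm5771, so single copies are uncertain. Among granule proteins, syncollin (Sycn) had 2.20 ± 0.51 and Zg16 1.41 ± 0.28. The nuclease Rnase1 and the phospholipase Pla2g1b had 2.36 ± 0.40 and 2.29 ± 0.45. Other probes, also well above background on all 16 arrays, gave 0.31 for Pla2g1b and 0.19 for Prss3.

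Across the 16 arrays the 38 enzyme and granule genes, rule genes included, correlated pairwise with a median r of 0.88, which is a description of genes chosen together. Small differences were fitted for Dnase1, at -0.19 ± 0.16 (0.43 on a second probe), Serpini2, at 0.28 ± 0.64, and Prss1, at 0.34 ± 0.44. For Serpini2 the class medians were further apart, at -4.43 and -5.38, and the acinar-poor 10 day replicate 5 alone reached -2.27.

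Regulators and secretory machinery of acinar cells did not show the enzyme pattern. Of 20 such genes 12 were higher and 8 lower, with a median of 0.097, and that median turned to -0.011 in the deposited quantile-normalized values. The disulfide isomerase Pdia2, which folds proteins in the acinar endoplasmic reticulum, was the 1 gene of the list without overlap, at -1.40, -0.83 and -0.35 against -2.57, -2.08 and -1.89, a difference of 1.46 ± 0.28. The gap junction gene Gjb1 had 1.0 ± 0.36 and the cholecystokinin receptor Cckar 2.25 ± 0.86, the latter well above background on 5 and 4 arrays of the classes.

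The factors that drive the enzyme genes differed little or were too dim to tell. Ptf1a measured -4.09, -3.48 and -3.36 in the acinar-rich and -3.99, -3.62 and -3.40 in the acinar-poor arrays, a difference of 0.15 ± 0.24 with the classes overlapping almost wholly. Rbpjl had 0.21 ± 0.24 and Gata4 0.20 ± 0.15. Bhlha15, also called Mist1, which organizes the secretory apparatus, had -0.82 ± 0.75, and Nr5a2 1.47 ± 1.30, each well above background on 4 of 6 acinar-rich arrays. A difference that misses the threshold does not show equal levels. The difference between the enzyme and the regulator genes was not tested.

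**Figure D2:**
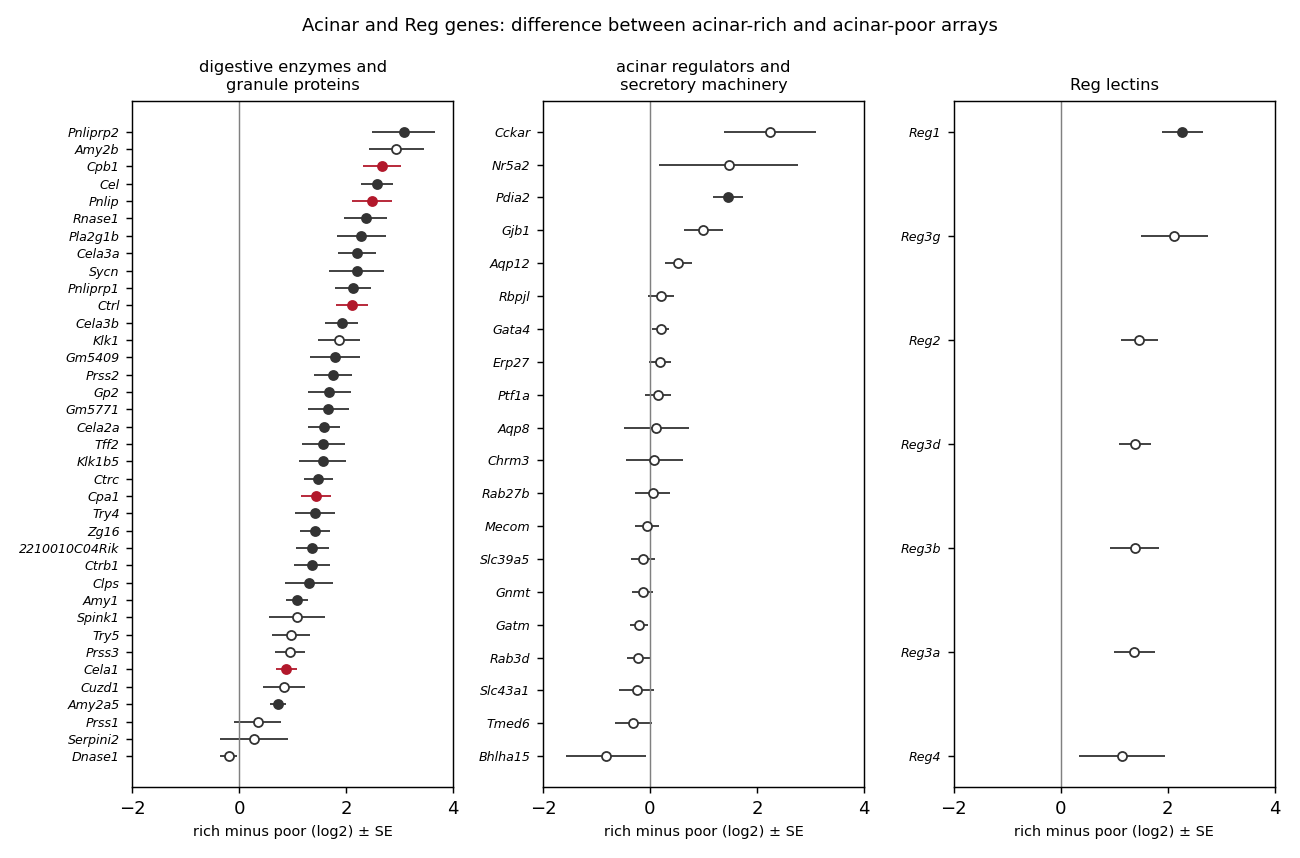
Difference between acinar-rich and acinar-poor arrays (x axis, log2 ± SE from limma with treatment in the model) for the genes named on the y axis. Red marks the 5 genes that set the classes, and filled circles mark genes with no overlap between classes. The enzymes other than Dnase1 lie to the right of 0, most regulators around 0, and Reg1 alone of the Reg lectins is filled.

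Outside the acinar lists, the question is which genes follow the enzymes. In limma 0 of 30524 such genes were higher and 0 lower at an adjusted p under 0.05, while 870 were higher and 796 lower at an unadjusted p under 0.05. Over all genes tested, acinar ones included, 1702 (5.57%) had an unadjusted p under 0.05, where 5% would be nominal. Complete separation of the classes was found for 49 genes higher (0.16%) and 19 lower (0.0621%), and 30 of the 49 are acinar list genes. The 19 others had differences from 0.45 to 2.71 with a median of 1.27, and the 19 lower ones from -2.15 to -0.24 with a median of -0.53.

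With the acinar mean as a continuous term in place of the classes, 35 genes passed (0.114%), of which 30 are in the acinar lists and 5 are not. Those 5 were Reg1, the kallikreins Klk1b24 and Klk1b26, and transcripts that the files describe as RIKEN cDNA 1810018F18 and as an amylase 2 pseudogene. Without the treatment covariate the classes gave 28 genes (0.0916%), 24 of them acinar and 4 outside: Reg1, Phgr1 and both of these transcripts. No gene outside the lists passed as lower in either model.

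Reg1, the founding member of the Reg lectins and a secretory product of stressed acinar cells, measured 0.62, 0.71 and 1.17 in the acinar-rich and -2.40, -1.71 and 0.16 in the acinar-poor arrays. Every acinar-rich array lay above every acinar-poor one, and vehicle replicate 1 at 0.16 was the nearest. The difference of 2.28 ± 0.38 is 4.84-fold (limma, adjusted p = 0.162 for classes and 0.00225 for the continuous mean). It was 1.37 within the vehicle and 2.81 within the 10 day group, and 1.92 and 2.26 within slides 1 and 2. The probe lies at chr6:78378527-78378586, and the marked pair in its promoter, with its motifs 30 bases apart, is shown above.

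The Reg lectins as a list had 7 of 7 members higher, 6 with an unadjusted limma p under 0.05 and 0 after adjustment, with a median of 1.39. Over all genes tested 14484 of 30582 were higher, and 2.96% were higher at that unadjusted p. Reg2 had 1.47 ± 0.35, Reg3d 1.39 ± 0.31 (2.11 on a second probe), Reg3a 1.38 ± 0.39, Reg3g 2.12 ± 0.62 and Reg3b 1.38 ± 0.46. In these 5 the classes overlapped, unlike in Reg1: Reg2 measured 2.01, 2.45 and 3.38 against 0.18, 0.90 and 2.44. The list's mean ran from -1.06 to 0.51 in the acinar-rich and from -3.04 to -0.62 in the acinar-poor arrays. The genes sit in 1 cluster on chromosome 6, except Reg4, which had 1.15 ± 0.81 and was well above background on 3 arrays of each class.

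Glandular kallikreins are serine proteases encoded by a cluster of close copies on chromosome 7. Klk1b26 (probe at chr7:51272277-51272336) measured -0.59, -0.28 and 0.16 in the acinar-rich and -2.79, -2.07 and -0.68 in the acinar-poor arrays, a difference of 1.58 ± 0.41 (limma, adjusted p = 0.833 for classes and 0.00137 for the continuous mean). Klk1b24 (chr7:51447637-51447696) measured -0.71, -0.49 and -0.03 against -2.32, -1.88 and -0.76, a difference of 1.35 ± 0.34 (adjusted p = 0.833 and 0.00292 in limma). Both separated the classes, again with vehicle replicate 1 as the nearest acinar-poor array. The Klk1b26 probe matches that of the acinar list gene Klk1b5 in 54 of 59 aligned bases, so these signals may not come from single genes.

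The transcript described as RIKEN cDNA 1810018F18, ENSMUST00000189764 in the files, measured -1.49, -1.20 and -0.79 against -4.90, -3.89 and -2.49. Its difference was 2.55 ± 0.45 (limma, adjusted p = 0.195 for classes and 2.8e-06 for the continuous mean). Its probe lies at chr19:58790119-58790178, and on assembly GRCm38.p6 the gene of this name stands between the lipase genes Pnlip and Pnliprp1, with 1810035K13Rik between it and Pnlip. The amylase pseudogene, ENSMUST00000122117, had 1.14 ± 0.22 (adjusted p = 0.256 and 0.0402 in limma), from a probe at chr3:112985269-112985328 in the amylase cluster. Neither transcript was in the acinar lists, though both carry names or places of acinar genes.

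Cxxc4, which encodes an inhibitor of Wnt signalling, had the smallest p outside the lists. It measured -1.46, -1.34 and -0.67 in the acinar-rich and -2.61, -1.93 and -1.76 in the acinar-poor arrays, a difference of 1.17 ± 0.17 (limma, adjusted p = 0.0947). The classes did not overlap, but the intermediate arrays spanned both, from -2.51 to -1.22, and with the continuous mean the adjusted p was 0.656. It passed in limma on the deposited quantile-normalized values, with normexp background correction and among probes well above background on all 16 arrays (adjusted p = 0.0352, 0.0340 and 0.0455), and not in the other alternatives fitted. The 3 other Cxxc4 probes were well above background on 0 or 1 of 16 arrays.

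Cldn4, a claudin of tight junctions in ducts and tumour epithelium, measured -0.87, -0.49 and 0.54 against -3.60, -2.19 and -1.24, a difference of 2.61 ± 0.66 (limma, adjusted p = 0.833). Every acinar-rich array lay above every acinar-poor one, yet the intermediate 48 h replicate 4, with a high acinar mean, had -3.88, the lowest value of all arrays. The other genes of the 12 with an official symbol and the smallest p on the higher side were Gk2 (glycerol kinase 2), Phgr1, Cyp2d22 (a cytochrome P450), Adgrg1 (an adhesion receptor) and Neil2 (a DNA repair glycosylase), besides Reg2 and Reg3d. Phgr1 had 1.09 ± 0.24 without overlap, Cyp2d22 1.89 ± 0.43, Adgrg1 1.23 ± 0.30, Gk2 0.90 ± 0.20 and Neil2 0.52 ± 0.13. Further Neil2 probes gave -0.018 and 1.56, so its probes disagree. Of these 12 genes 6 showed no overlap between classes, while 0.16% of all genes tested were higher without overlap. The 12 were picked by the p of the same contrast, which favours such genes, so the count is no result about them. Their adjusted p ran from 0.0947 to 0.833 in limma.

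**Figure D3:**
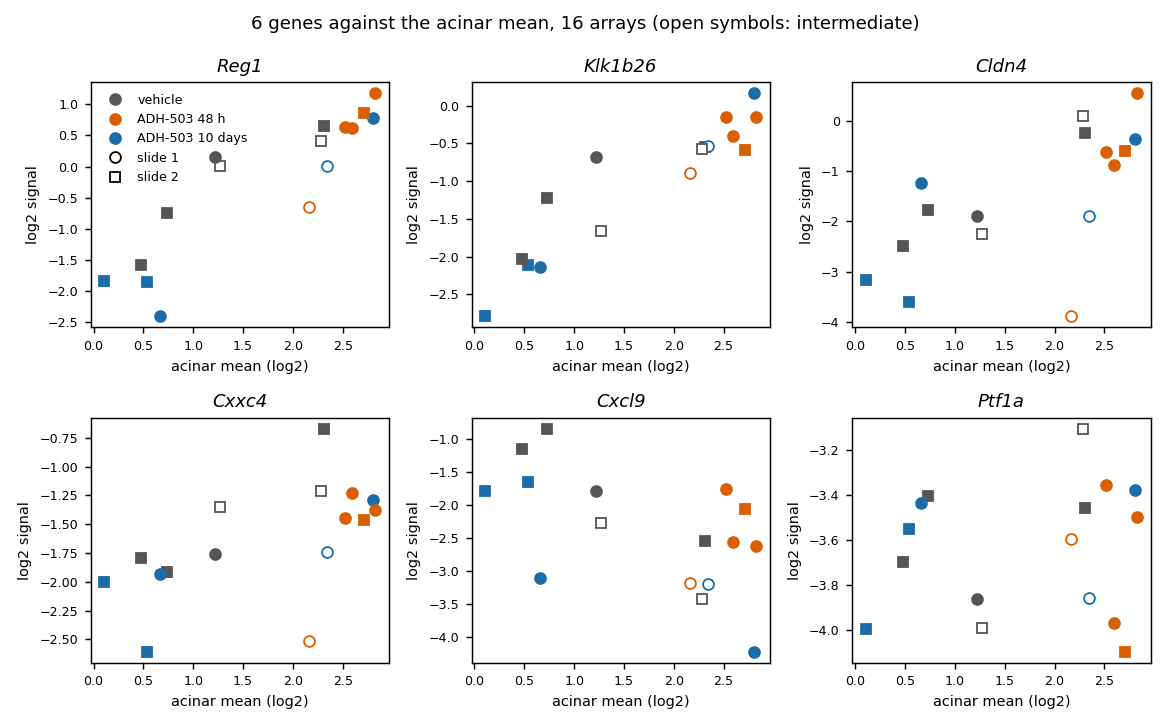
Level of 6 genes (y axes, log2 signal relative to each array's 75th percentile) against the acinar mean on the same scale (x axes) in the 16 arrays; colour gives treatment, shape the slide, and open symbols are intermediate arrays. Reg1 and Klk1b26 climb with the acinar mean, Cldn4 and Cxxc4 separate the classes but not the intermediate arrays, Cxcl9 leans downward, and Ptf1a is flat.

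On the lower side, the 12 genes described are those with an official symbol and at least 3 arrays of each class well above background, a condition that leaves out genes dim in the acinar-rich arrays. It left out Trim6, named after its value was seen, which had -1.24 ± 0.24 (limma, adjusted p = 0.256) and no overlap between classes, with 2 of 6 acinar-rich and 6 of 6 acinar-poor arrays well above background. None of the 12 separated the classes. Their fitted differences ran from -2.69 to -0.48 with a median of -0.66, while the plain differences of class means, without the treatment term, had a median of -0.30. Shld1, a subunit of the shieldin complex of DNA repair, had -0.66 ± 0.15 in the fit, but its medians were -0.10 and -0.02. Orai1, the pore of the store-operated calcium channel, measured 1.84, 2.0 and 2.39 in the acinar-rich and 2.20, 2.37 and 2.58 in the acinar-poor arrays, a difference of -0.53 ± 0.13. The small GTPase Rab13 had -0.78 ± 0.19 but 0.92 on its other probe, so its direction is not settled. The collagen-modifying enzyme Plod3 had -0.48 ± 0.13, and the ciliary gene Tctn3 -0.64 ± 0.16. Zfhx2os, an antisense transcript, had -2.69 ± 0.63 from 3 acinar-rich arrays well above background. The others were Cdk5rap1, Armc10, Slc6a18, Dis3l, Odf2l and Qtrt1, from -1.12 to -0.51, of which Armc10 and Odf2l had other probes on the higher side, at 0.31 for Armc10 and at 0.19 and 1.55 for Odf2l. The adjusted p of these 12 was 0.586 or more in limma.

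The genes most like the acinar mean were found by Pearson's r over the 16 arrays after subtraction of treatment means, a measure of likeness that the gap in the acinar mean dominates. Among genes with an official symbol they were Klk1b26 (r = 0.92), Reg1 and Klk1b24 (both 0.91), Adgrg1 (0.81), Fitm2 (0.79), Ttn (0.78), and Wwc2, Ctnnd1, Rptoros and Plce1 (all 0.77). Transcripts without such a symbol were left out, among them ENSMUST00000189764 with r = 0.97 and ENSMUST00000122117 with 0.86. The differences of the 7 genes after the first 3 ran from 1.23 ± 0.30 for Adgrg1 to 0.28 ± 0.11 for Ttn, with Rptoros at 0.90 ± 0.31, Plce1 at 0.74 ± 0.25 and Fitm2 at 0.72 ± 0.19. Other probes gave 0.041 for Fitm2, -0.51 for Ttn and 1.1 for Ctnnd1, a catenin of cell junctions whose main probe gave 0.36 ± 0.16.

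Epithelial genes were on the same side as the enzymes. Of 25 ductal and tumour epithelium genes 24 were higher and 1 lower in the acinar-rich arrays, with a median of 0.61, and 6 had an unadjusted limma p under 0.05. Over all genes tested 14484 of 30582 were higher, and 2.96% were higher at that p. Besides Cldn4 the 6 included Epcam, an adhesion molecule of epithelia, at 1.32 ± 0.55, and the keratins Krt20 and Krt8 at 1.98 ± 0.83 and 1.62 ± 0.70. The acinar-poor 10 day replicate 1 had Krt20 at 0.05 and Krt8 at 3.29, above the acinar-rich medians of -0.92 and 3.03. The intermediate 48 h replicate 4 had the lowest Krt8 and Epcam of all arrays, at 0.35 and -2.94. The list's mean ran from -0.96 to -0.10 in the acinar-rich and from -2.17 to -0.39 in the acinar-poor arrays, so it overlapped. The median was 0.16 within slide 1 and 0.61 within slide 2.

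Of 15 genes linked to acinar-to-ductal change and pancreatitis, 5 of which (Krt19, Onecut1, Sox9, Klf4 and Spp1) also stand in other lists, 10 were higher, with a median of 0.073. The metalloproteinase Mmp7 measured -4.17, -2.73 and -2.19 against -8.00, -7.77 and -3.43, a difference of 4.50 ± 1.32, with only 2 of 6 acinar-poor arrays well above background. The stem and duct cell protein Prom1 had 2.33 ± 0.92 and the EGF receptor ligand Tgfa 0.99 ± 0.39, each with overlapping classes. Further Prom1 probes were at -0.58 and 1.97. None passed adjustment in limma.

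Markers of other tissues that a tumour sample can hold are given for whole lists, since they moved with the classes or not, and their part in the results above was not tested. For comparison, 14484 of all 30582 genes tested were higher, and 2.96% were higher with an unadjusted limma p under 0.05. Of 18 fibroblast and matrix genes 16 were higher, with a median of 0.81 and 1 at an unadjusted p under 0.05, Postn at 0.89 ± 0.32 (1.93 and 2.55 on dimmer probes). The list's mean ran from -1.83 to -0.33 (average -1.11) and from -2.62 to -1.05 (average -1.45), without the treatment term. The list's median difference was 0.0087 within slide 1. Endothelial genes had 8 of 13 higher and a median of 0.65, which was -0.21 within slide 1. It also turned negative among probes well above background on all 16 arrays. The endothelial mean ran from -3.13 to -2.13 in the acinar-rich and from -3.70 to -2.52 in the acinar-poor arrays. Without the treatment term it averaged -2.88 and -2.98 in the classes, much closer than the fitted median. Islet genes had 10 of 15 higher and a median of 0.14, with the hormone gene Pyy at 1.67 ± 0.54. Intestinal genes had 7 of 10 higher and a median of 0.29, with Muc2 at 1.22 ± 0.37. Mesothelial genes had 4 of 5 higher and a median of 0.19, with Msln at 1.85 ± 0.81, and hepatocyte genes 7 of 9 and 0.33. Both of these medians stayed positive under every alternative. The adipocyte, smooth muscle, nerve and erythroid medians were 0.22, 0.13, 0.10 and 0.13, and each changed sign under at least 1 alternative. Skeletal muscle genes had 3 of 9 higher and a median of -0.083.

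Immune cell lists were near the median of all genes, mostly on the lower side, where 16098 of all 30582 genes tested also lay. The inflammatory cytokine list lay on the other side, with 15 of 18 higher and a median of 0.16 (-0.11 within slide 1). Mast cell genes had 7 of 11 lower with a median of -0.24, and plasma cell genes 4 of 8 with -0.032. B cell genes had 10 of 12 lower with a median of -0.20 (0.60 within slide 2), T cell genes 11 of 15 with -0.18, macrophage genes 10 of 15 with -0.094 and granulocyte genes 11 of 16 with -0.080. The B cell list's mean spread widely in the acinar-rich arrays, from -0.27 to 2.08, against 0.25 to 1.38 in the acinar-poor ones. In the macrophage list, Cd68 had -0.30 ± 0.12 and the scavenger receptor Marco -1.08 ± 0.50. The macrophage and granulocyte medians were 0.0038 and 0.0029 in the quantile-normalized values, so their direction depends on the scaling.

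Interferon response genes had 18 of 22 lower, with a median of -0.20 and 3 with an unadjusted limma p under 0.05. Over all genes tested 16098 of 30582 were lower, and 2.6% were lower at that p. The T cell-attracting chemokine Cxcl9 measured -4.22, -2.56 and -1.76 in the acinar-rich and -3.11, -1.72 and -0.85 in the acinar-poor arrays, a difference of -1.38 ± 0.42 (adjusted p = 0.833). Vehicle replicates 3 and 5 were the highest, and 10 day replicate 3, the array with the highest acinar mean, was the lowest. The antiviral GTPase Mx1 had -0.73 ± 0.33 and Gbp2 -0.56 ± 0.26. The list's median was -0.010 within slide 1 and -0.26 within slide 2.

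Secretory and metabolic programmes of the whole tissue did not follow the enzymes upward. Among all 30582 genes tested 14484 were higher and 16098 lower. Genes of the unfolded protein response and endoplasmic reticulum chaperones, which secretory cells need, had 3 of 20 higher and 17 lower, with a median of -0.15 and the chaperone Calr at -0.61 ± 0.25. Endoplasmic reticulum translocation and vesicle transport had 5 of 25 higher and a median of -0.13. All 20 ribosomal protein genes were lower, by a median of -0.18, and 16 of 20 oxidative phosphorylation genes, by -0.18. Proliferation genes had 20 of 30 lower with -0.092, and housekeeping controls 7 of 12 with -0.053. These medians were positive within slide 1, at 0.15, 0.13, 0.070, 0.085, 0.14 and 0.14 in the order given, and the housekeeping median was 0.0015 in the quantile-normalized values.

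**Figure D4:**
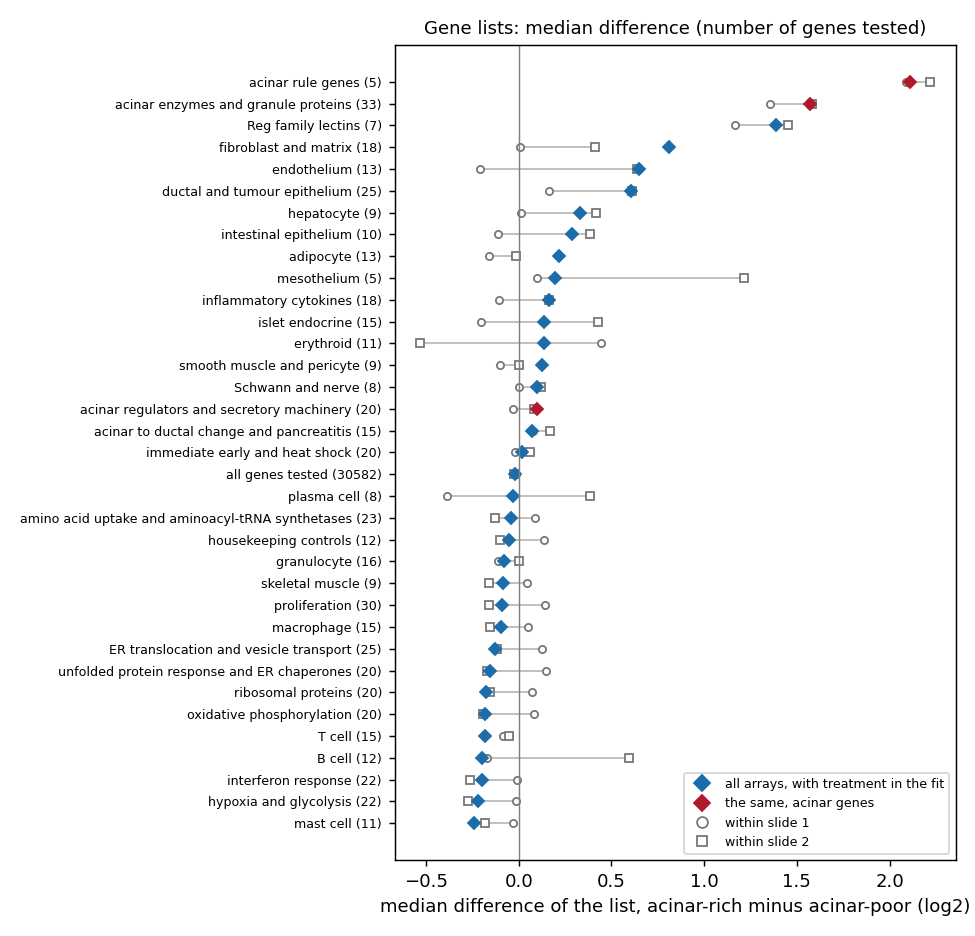
Median difference between acinar-rich and acinar-poor arrays (x axis, log2) for each gene list (y axis, number of genes tested in brackets). Diamonds are the fit over all arrays with treatment in the model, red for acinar lists. Open symbols give the median of plain differences of class means within each slide, without treatment in the model. Outside the enzyme, Reg, ductal, fibroblast and endothelial lists the fitted medians lie between -0.24 and 0.33, and many change side within slide 1.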

How the data were processed

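Tumour RNA of 16 samples was hybridized on 1-colour Agilent mouse 8x60K arrays after whole-transcriptome amplification and chemical Cy5 labelling, per the labels' protocols. The scanner files were written by Agilent Feature Extraction (version 11.5.1.1 in the submitters' processing notes). The processed signal is, per the file headers, a background-subtracted intensity, and probe positions are on mm9. The authors deposited quantile-normalized log2 values of the same arrays: once sorted, its columns match to within 0.0043, and the lowest correlation of a column with its own array is 0.998. This table set the classes and served as an alternative. The test and annotation used by the authors are not given in the sources used here.

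Outlier and control spots were left out and each array's 75th percentile over 56605 probes was subtracted from log2 signals. Of 37008 names, each taken as its brightest probe, 30582 were well above background on at least 5 of 16 arrays and were tested; 62 values were missing. RefSeq genes (GRCm38.p6) gave names to 32994 probes through accessions and to 10744 through symbols or synonyms; the file's own name was kept for 12867.

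Class (rich, intermediate, poor) and treatment were fitted over all 16 arrays with limma 3.58.1 (R 4.3.3, lmFit, robust eBayes), 2-sided, adjusted by Benjamini-Hochberg over all genes, threshold 0.05. The code was checked on simulated data. Lists are described by counts and medians only. The members, lists and tests were chosen with earlier results of these data known. Named genes are the rule genes, the 12 higher and 12 lower genes outside the acinar lists with the smallest p (official symbol, well above background on 3 arrays of each class), up to 4 members per list and the 10 with the highest r; genes called in other models are named because they were called, and further acinar, Reg and regulator genes are examples chosen after their values were seen. Alternatives covered scaling, background, dim-probe filters, covariates, slide, class size, the continuous mean, and leaving out single arrays. A split at the widest gap and a fit without the 48 h arrays were chosen after seeing the data. In the acinar lists 1 gene counts in the list totals but is not reported here by name.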

Additional observations from a re-analysis of the deposited data

Results flagged for a closer look

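In 7 of 116 checks, 1 array of a class stood apart from the other 5 by more than Dixon's 95% limit for a group of this size. Chance flags about 1 in 20 such groups, and the 7 are near that rate. In the acinar-rich arrays Cxxc4 was -0.67 in vehicle replicate 4 (others -1.46 to -1.23), Prom1 was 1.81 in 48 h replicate 1 (others 0.45 to 0.85), Epcam was 0.71 in the same array (others -1.05 to -0.41), and Cxcl9 was -4.22 in 10 day replicate 3 (others -2.62 to -1.76). In the acinar-poor arrays Cxxc4 was -2.61 in 10 day replicate 5 (others -2.0 to -1.76), Cdk5rap1 was 0.79 in vehicle replicate 3 (others -0.01 to 0.27), and Uqcrfs1 was 1.56 in 10 day replicate 1 (others 1.91 to 1.97). Cxxc4 was the only one of these genes for which an array stood apart in both classes.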

How the results depend on the processing

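The count of genes higher outside the acinar lists, 0, became 1 (Cxxc4) in the quantile-normalized table, with normexp and among probes well above background on all 16 arrays, 4 without the treatment covariate, 3 for 5 against 5 arrays, 5 with the continuous mean, 3 with classes from 75th percentile scaled values, and 1 for the split at the widest gap, where 1 gene was also lower; the cause was not tested. Leaving out 1 array gave 0 to 3, with 3 (Reg1 and both described transcripts) without vehicle replicate 1. Over all genes the count was 1, but 0 without 12 of the 16 arrays in turn, 20 without vehicle replicate 1, 7 without vehicle replicate 6, 0 without the arrays that share an ID number and 0 without the 48 h arrays. Without the covariate treatment and class cannot be told apart. Of 57 named genes over 33 alternatives, 8 values changed sign: within slide 1 Shld1 (0.012), Sars (0.089), Esam (-0.36), Gbp2 (0.10), Muc2 (-0.0077), Uqcrfs1 (0.02) and Calr (0.18), and within slide 2 Odf2l (0.13). Of 34 lists 10 kept their sign throughout, among them the enzymes, Reg lectins, ductal, fibroblast and interferon lists, and 18 changed sign within slide 1. The median of all genes lay between -0.049 and 0.017. No paired analysis was possible because replicate numbers follow sample order only. Arrays limit precision by their number, and dim genes such as Nr5a2, Cckar and Mmp7 by background.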
